A study of Mus musculus with 14 samples.

Results

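The serotonin receptors measured here were 10 genes of the hippocampus: Htr1a, Htr1b, Htr1f, Htr2a, Htr2c, Htr3a, Htr4, Htr5a, Htr5b and Htr6. They were chosen by name, as the rows of the deposited gene count table whose Ensembl identifiers carry these symbols in the GENCODE M21 annotation. All 10 were present among the 55536 Ensembl genes of the table, and all 10 passed the minimum of 10 counts over the libraries that left 38070 genes for testing. This rule used no measured value, but the members were chosen with earlier results of these data known. The 4 other serotonin receptor genes of the table (Htr1d, Htr2b, Htr3b and Htr7) are given beside them.

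Each of 14 mice gave 1 library of hippocampal RNA at the age of 10 months, dissected after the mouse had been perfused with buffer. MRL mice (n = 4) are B6.MRL-Faslpr/J mice, which carry the lpr mutation of the death receptor gene Fas and develop a lupus-like disease. MRL-IRAK4-KD mice (n = 4) carry the same lpr mutation together with a kinase-dead form of IRAK4, the kinase that relays signals of Toll-like receptors and of the interleukin-1 receptor family. IRAK4-KD mice (n = 3) carry the kinase-dead IRAK4 without lpr, C57BL/6 mice (n = 3) carry neither, and the methods place all strains on the C57BL/6 background. Neither mutation was described as limited to a cell type. The design compares MRL with MRL-IRAK4-KD mice, IRAK4-KD with C57BL/6 mice, and the lpr with the non-lpr strain at each state of IRAK4.

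Serotonin reaches the hippocampus in axons from the raphe nuclei of the brain stem, and its receptors differ in the signal they pass on. The Htr1 and Htr5 receptors couple mainly to inhibitory G proteins, the Htr2 receptors to Gq and phospholipase C, Htr4, Htr6 and Htr7 to Gs and adenylyl cyclase, and Htr3a is a subunit of an ion channel opened by serotonin. Htr1a dampens pyramidal cells, Htr3a marks a class of inhibitory interneurons, and Htr2c is abundant in the choroid plexus that adjoins the hippocampus.

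Total counts per library ranged from 279941472 to 572398312, so counting error was small for every member: the lowest count of a member in a library was 190, for Htr1f. Values of single mice are in CPM, the count of a gene relative to the size of its library as scaled by edgeR's TMM factors. The libraries were not all alike. MRL-IRAK4-KD replicate 4 had the lowest RNA concentration on the sheet of the sequencing core, 27.4 against 39.6 to 43.7 in the other libraries, and a score of 113 on the first principal component, where the other 13 libraries lay at 4.68 or below. Of the 16104 genes with a mean of at least 1 CPM, 40.6% had their lowest value in that library. The library labelled IRAK4-KD replicate 3 had 0 counts of Fas-201, annotated as a protein-coding transcript, and 514 of Fas-204, annotated as a target of nonsense-mediated decay, as the 8 libraries of the lpr strains did, which had 0 and between 268 and 964. The other IRAK4-KD and the C57BL/6 libraries had between 345 and 584 counts of Fas-201 and at most 7 of Fas-204, so this library goes against its label. Irak4 mRNA, at 1.54 to 2.72 CPM over the 14 mice, does not show whether the kinase is dead. Markers of the hippocampal fields were detected in every mouse, with summed levels of 351 to 542 CPM for 5 CA1 markers, 207 to 403 CPM for 4 CA3 markers and 139 to 294 CPM for 5 dentate gyrus markers.

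Htr2c and Htr3a were the members whose annotated transcripts differed in coding sequence and shared out the counts, so the segments that set their transcripts apart are shown first. Htr2c (ENSMUSG00000041380.13) lies on the plus strand of chromosome X of mm10, from 146962513 to 147197277. Its main transcript Htr2c-201 has a coding length of 1377 bases, and in Htr2c-207 a coding segment of 95 bases (chrX:147169676-147169770, plus strand) is skipped, which leaves a coding length of 516 bases. The enzymes of the ADAR family edit adenosines near the start of this segment, which the counts cannot show since they hold no base calls. The GENCODE M21 transcript sequences are given below with 30 flanking bases of the neighbouring exons in lower case and the skipped segment in capitals.
Htr2c-201: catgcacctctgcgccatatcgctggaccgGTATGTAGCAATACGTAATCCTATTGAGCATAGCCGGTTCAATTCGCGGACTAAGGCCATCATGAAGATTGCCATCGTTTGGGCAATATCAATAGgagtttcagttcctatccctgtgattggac
Htr2c-207: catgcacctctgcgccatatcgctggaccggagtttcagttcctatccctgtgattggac

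Htr3a (ENSMUSG00000032269.8) lies on the minus strand of chromosome 9, from 48899213 to 48911099. Its transcripts Htr3a-201 and Htr3a-202 differ within the coding sequence by 18 bases (chr9:48899991-48900008, minus strand), in capitals below, which lengthen the coding sequence from 1449 to 1467 bases with the reading frame kept.
Htr3a-201: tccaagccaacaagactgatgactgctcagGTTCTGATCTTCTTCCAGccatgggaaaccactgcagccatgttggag
Htr3a-202: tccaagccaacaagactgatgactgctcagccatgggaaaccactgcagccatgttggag

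Levels were compared between genes per length of transcript, as CPM per kilobase. Htr2c and Htr1a stood highest, at 6.58 ± 1.42 (SD, n = 14) and 6.10 ± 1.26 CPM per kilobase. Htr2c was above Htr1a in 8 of 14 mice, and their means differed by less than the spread between mice. Htr3a followed at 4.75 ± 1.05 CPM per kilobase and was below Htr1a in 12 of 14 mice and above the next gene, Htr7, in 14 of 14. A middle group held Htr7, Htr2a, Htr5a, Htr4, Htr5b, Htr1b and Htr6, with means between 2.58 and 1.22 CPM per kilobase. In that group each neighbour in the order differed from the next by less than the larger SD of the pair, and Htr4, Htr5b and Htr6 each stood anywhere from the fourth to the tenth place in single mice. Htr1f, a receptor of the Htr1 family, was lowest of the members at 0.399 ± 0.120 CPM per kilobase and took place 11 in all 14 mice. Htr1d and Htr2b had means of 0.112 and 0.0625 CPM per kilobase, and Htr3b, the partner subunit of Htr3a, had between 0 and 13 counts per library.

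**Figure D1:**
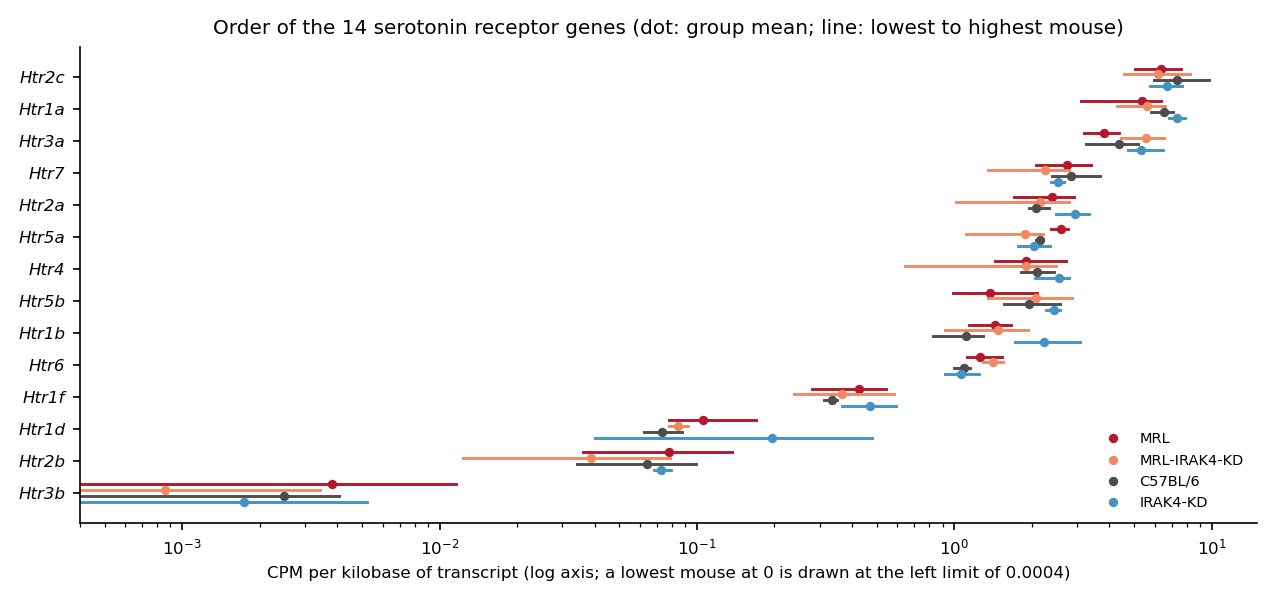
Levels of the 10 members and the 4 other serotonin receptor genes in CPM per kilobase of transcript on a log axis, with a dot at the mean of each group and a line from its lowest to its highest mouse. Htr2c, Htr1a and Htr3a lie above the rest, and Htr1f, at a mean of 0.399 over the 14 mice, lies apart from Htr6 above it.

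The lowest and the highest values of the members over the 14 mice were counted by library. MRL-IRAK4-KD replicate 4 held the lowest value of 5 of 10 members (Htr1f, Htr2a, Htr2c, Htr4 and Htr5a) and the highest value of Htr3a, 1 of 10. Of the 16104 genes, 40.6% had their lowest and 32.9% their highest value there, so the count of lowest values was near the share of all genes. The library labelled IRAK4-KD replicate 3 held the highest value of 4 of 10 members (Htr1b, Htr1f, Htr2a and Htr4), against 12.4% of the 16104 genes.

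**Figure D2:**
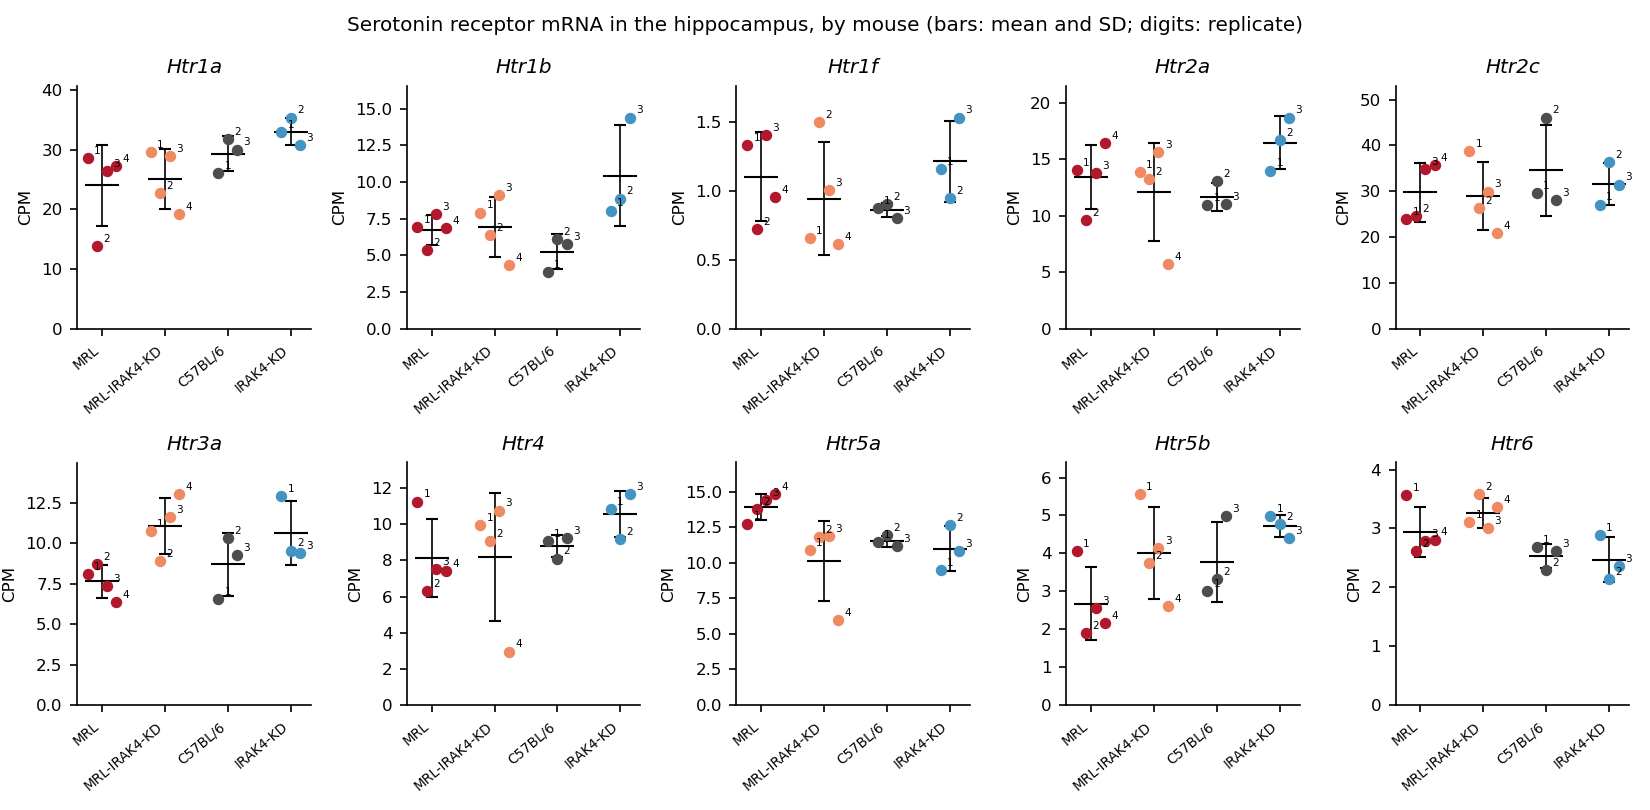
CPM of each member in each mouse, with the axis from 0, bars at the mean and SD of each group, and the replicate number beside each point. MRL-IRAK4-KD replicate 4 lies below the other 3 mice of its group in 8 of the panels, and Htr3a lies lower in all 4 MRL than in all 4 MRL-IRAK4-KD mice.

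The first comparison asked whether the kinase-dead mutation alters receptor expression in lupus-prone mice. MRL mice had less Htr3a and Htr5b mRNA and more Htr5a mRNA on average than MRL-IRAK4-KD mice, by up to 0.59 on the log2 scale. No member passed an adjusted p of 0.05 in edgeR's quasi-likelihood test (0 of 10), where 0.0972% of all genes did, and DESeq2 and limma-voom also called 0 of 10. An unadjusted p below 0.05 was reached by 3 of 10 members, against 11.4% of all genes tested, and the groups did not overlap for 2 of 10, against 5.26%. The members had a median log2 fold change of -0.03, beside 0.00 for all genes, and of -0.15 without MRL-IRAK4-KD replicate 4, beside 0.02.

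Htr3a, the channel subunit, had 8.11, 8.69, 7.36 and 6.38 CPM in MRL replicates 1 to 4 and 10.8, 8.87, 11.6 and 13.03 CPM in MRL-IRAK4-KD replicates 1 to 4. Every MRL mouse lay below every MRL-IRAK4-KD mouse. MRL over MRL-IRAK4-KD gave a log2 fold change of -0.54 (SE 0.17), with an unadjusted p of 0.00759 and an adjusted p of 0.408 in the edgeR fit, and it was -0.44 without MRL-IRAK4-KD replicate 4. Summed CPM was taken of 10 markers of interneurons from the caudal ganglionic eminence, the class that Htr3a marks. The sums ran from 536 to 678 in MRL and from 594 to 719 in MRL-IRAK4-KD mice, overlapping. None of the 10 was at 0 in any mouse. The highest sum was that of MRL-IRAK4-KD replicate 4, where 4 of the 10 markers were highest and 4 lowest of all mice. Cck had 383 CPM there and 93.9 to 189 CPM in the other mice. Cnr1 had 62.4 CPM there and 138 to 231 CPM in the other mice. The part of the 10 markers in the difference of Htr3a was not tested. In bulk tissue, fewer cells of a type and less RNA per cell cannot be told apart. The strand setting of the counting was not given in the sources used here, and the antisense gene Gm32335 that overlaps Htr3a had at most 0.0597 CPM.

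Htr5a (ENSMUSG00000039106.6, chromosome 5, 27842149 to 27855088) codes for an inhibitory receptor found mainly in the brain. It had 12.8, 13.8, 14.4 and 14.8 CPM in MRL mice, and 10.9, 11.8, 11.9 and 5.99 CPM in MRL-IRAK4-KD mice. It was the member whose MRL group lay apart from both neighbouring groups, above all MRL-IRAK4-KD and all C57BL/6 mice. The log2 fold change of MRL over MRL-IRAK4-KD was 0.46 (SE 0.18, adjusted p = 0.437 by edgeR). Without MRL-IRAK4-KD replicate 4, which was lowest of the 14 mice, it was 0.28 (SE 0.10, adjusted p = 0.436), and the groups still did not overlap.

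Htr5b (ENSMUSG00000050534.8, chromosome 1, 121509842 to 121528465), a receptor that is lost as a working gene in humans, had 4.06, 1.91, 2.55 and 2.16 CPM in MRL mice against 5.56, 3.74, 4.15 and 2.61 CPM in MRL-IRAK4-KD mice. The groups overlapped, since MRL replicate 1 lay above MRL-IRAK4-KD replicates 2 and 4. The log2 fold change was -0.59 (SE 0.26, adjusted p = 0.439 by edgeR) and its lowest adjusted p in any setting, 0.0678, was that of limma-voom with quality weights, the lowest of any member in any comparison. It was -0.45 without MRL replicate 2 and lay between -0.87 and -0.39 when each of the mice was left out in turn. Summed CPM of the 4 CA3 markers was also lower on average in MRL, at 207 to 266 against 259 to 371. The sums overlapped, as did each of the 4 markers, and their part in the difference was not tested.

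For the other 7 members the difference was at most 0.23 on the log2 scale. The direction turned when 1 mouse was left out for 5 of these 7, namely Htr1a, Htr1b, Htr2a, Htr2c and Htr4. The 95% interval of the log2 fold change reached from -0.49 to 0.36 for Htr1a and from -0.42 to 0.49 for Htr2c, and those of 9 of 10 members lay within -1 and 1.

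**Figure D3:**
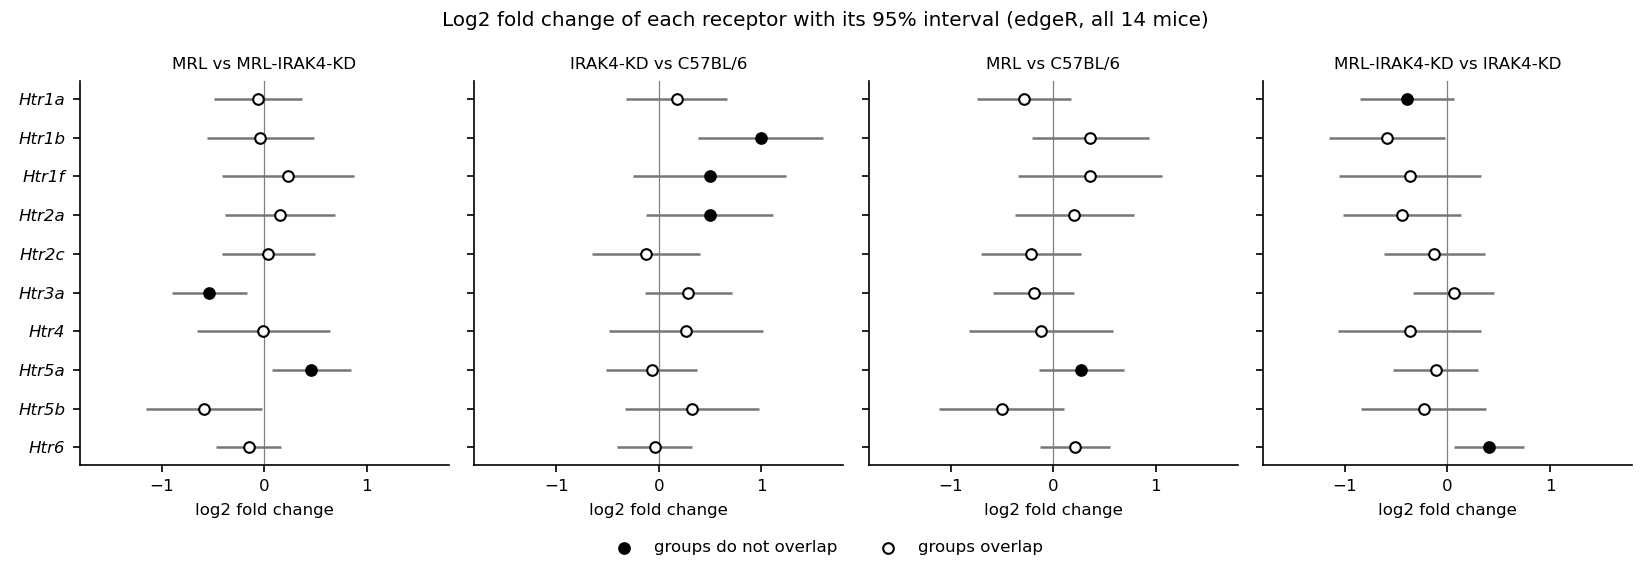
Log2 fold change of each member in the 4 comparisons between groups (dots), with the 95% interval of edgeR's quasi-likelihood fit (lines), filled where the CPM of the groups do not overlap. The interval lies off 0 for Htr3a, Htr5a and Htr5b in MRL against MRL-IRAK4-KD mice, for Htr1b in IRAK4-KD against C57BL/6 mice, and for Htr1b and Htr6 in MRL-IRAK4-KD against IRAK4-KD mice, before any adjustment for the number of genes.

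The same mutation was examined without lpr by comparing IRAK4-KD with C57BL/6 mice. Htr1b, Htr1f and Htr2a lay higher in all 3 libraries labelled IRAK4-KD than in all 3 C57BL/6 mice. A fold change above 0 was found for 7 of 10 members, against 47.0% of all genes. The members had a median log2 fold change of 0.27 beside -0.01 for all genes. The member median was 0.26 without the library labelled IRAK4-KD replicate 3, 0.15 without C57BL/6 replicate 1 and 0.34 without IRAK4-KD replicate 2. No member passed an adjusted p of 0.05 in edgeR (0 of 10, against 0.147% of all genes), in DESeq2 or in limma-voom. An unadjusted p below 0.05 was reached by 1 of 10, against 3.8% of all genes. Groups did not overlap for 3 of 10, all with IRAK4-KD higher. Of all genes, 11.2% did not overlap in either direction, and 5.63% did not with IRAK4-KD higher.

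Htr1b (ENSMUSG00000049511.5, chromosome 9, 81628291 to 81633828) codes for the receptor that curbs release from serotonin and other axon terminals. It had 8.05, 8.87 and 14.4 CPM in the libraries labelled IRAK4-KD replicates 1, 2 and 3, and 3.85, 6.10 and 5.76 CPM in C57BL/6 mice. The groups did not overlap, and the library that goes against its label was the highest of all 14. IRAK4-KD over C57BL/6 gave a log2 fold change of 0.99 (SE 0.28), the largest of any member in any comparison, with an adjusted p of 0.734 by edgeR and 0.103 by DESeq2. Without that library it was 0.69 (SE 0.28, unadjusted p = 0.0300, adjusted p = 1.00). All 12 of 12 markers of the striatum, a forebrain region whose projection neurons express Htr1b, were highest in that library, at a sum of 671 CPM against 143 and 182 in the other IRAK4-KD and 161 to 187 in the C57BL/6 mice. None of the 12 was at 0 in any mouse, and their part in that library's Htr1b was not tested. The antisense gene D430036J16Rik overlaps Htr1b and had 0.605 to 2.46 CPM, and how the counting used strand was not given in the sources used here.

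Htr2a (ENSMUSG00000034997.5, chromosome 14, 74640840 to 74709494) codes for the receptor through which hallucinogens act in the cortex. It had 13.98, 16.7 and 18.7 CPM in the libraries labelled IRAK4-KD and 10.9, 13.1 and 10.99 CPM in C57BL/6 mice. The groups lay apart, and the log2 fold change was 0.50 (SE 0.29, adjusted p = 1.00 by edgeR) and 0.40 (SE 0.33) without the library labelled IRAK4-KD replicate 3, the highest of the 3. Htr1f (ENSMUSG00000050783.5, chromosome 16, 64924729 to 65105854) had 1.16, 0.948 and 1.53 CPM in these libraries and 0.872, 0.905 and 0.804 CPM in C57BL/6 mice, with a log2 fold change of 0.50 (SE 0.35, adjusted p = 1.00). That of Htr1f was 0.29 (SE 0.39) without the same library, its highest value. In the lpr strains neither gene lay apart between MRL and MRL-IRAK4-KD mice.

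Whether the mutation acts differently with and without lpr was tested as an interaction, the fold change of MRL over MRL-IRAK4-KD less that of C57BL/6 over IRAK4-KD. No member passed an adjusted p of 0.05 (0 of 10 by edgeR, against 0.00263% of all genes, and 0 of 10 by DESeq2 and by limma-voom). Htr1b had the only unadjusted p below 0.05 among the members (1 of 10, against 4.17% of all genes), with an interaction of 0.95 on the log2 scale (SE 0.37, 95% interval 0.15 to 1.76, adjusted p = 0.914). Without the library labelled IRAK4-KD replicate 3 it was 0.65 with an unadjusted p of 0.0942, and 0 of 10 members had an unadjusted p below 0.05.

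The effect of lpr was examined with the kinase intact in MRL against C57BL/6 mice. No member passed an adjusted p of 0.05 (0 of 10 by edgeR, DESeq2 and limma-voom, where edgeR called 0% of all genes), and 0 of 10 had an unadjusted p below 0.05, against 5.55% of all genes. Groups did not overlap for 1 of 10 members, against 9.63%. This was Htr5a, at 12.8 to 14.8 CPM in MRL and 11.5, 11.9 and 11.2 CPM in C57BL/6 mice, with a log2 fold change of 0.28 (SE 0.19, adjusted p = 0.968). Htr5b had the largest fold change, -0.50 (SE 0.28, adjusted p = 0.931), and its groups overlapped. Summed CPM of the 4 CA3 markers was 207 to 266 in MRL and 355 to 403 in C57BL/6 mice, apart. Of the 4, only Cpne7 lay apart, at 139 to 188 CPM in MRL and 260 to 314 CPM in C57BL/6 mice. Bok, Grik4 and Iyd overlapped between these groups. The part of these markers in the difference of Htr5b was not tested. The median log2 fold change of the members was 0.04, beside 0.00 for all genes.

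Htr1a (ENSMUSG00000021721.5, chromosome 13, 105443639 to 105448122), the receptor by which serotonin hyperpolarises pyramidal cells, had 28.6, 13.9, 26.4 and 27.2 CPM in MRL mice and 26.02, 31.8 and 29.98 CPM in C57BL/6 mice. MRL replicate 2 lay far below the other MRL mice. It also had the lowest sums of the 14 mice for the 5 CA1 markers, 351 CPM, and for the 4 CA3 markers, 207 CPM, while the sum of 7 neocortical markers, 145 CPM, lay within the range of the other mice. Of the 7 neocortical markers, 2 were highest and 0 lowest in MRL replicate 2. Rorb had 52.5 CPM there and at most 41.5 CPM in the other mice. Rspo1 had 12.96 CPM there and at most 4.26 CPM in the other mice. Fezf2, Scnn1a and Tle4 of the same list were near their lowest there, at 23.6, 6.69 and 37.8 CPM. Their lowest values in any mouse were 22.97, 6.58 and 28.0 CPM. Of the 5 CA1 markers 1 was lowest in MRL replicate 2, and of the 4 CA3 markers 2 were. The part of the CA1, CA3 and neocortical markers in the Htr1a of MRL replicate 2 was not tested. The log2 fold change of Htr1a was -0.28 (SE 0.21, adjusted p = 0.987 by edgeR), and -0.09 without MRL replicate 2.

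With the kinase dead, the lpr strain was compared with the non-lpr strain as MRL-IRAK4-KD against IRAK4-KD mice. Htr6 lay higher and Htr1a lower in MRL-IRAK4-KD mice without overlap, and 8 of 10 members had a fold change below 0. Of all genes, 49.4% had a fold change above 0 in this comparison. No member passed an adjusted p of 0.05 (0 of 10 by edgeR, DESeq2 and limma-voom, against 0.0735% of all genes by edgeR). An unadjusted p below 0.05 was reached by 2 of 10, against 8.63% of all genes, and 2 of 10 did not overlap, against 8.74%. The median log2 fold change of the members was -0.30 beside 0.00 for all genes, and it was -0.06 when both libraries that stand apart were left out.

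Htr6 (ENSMUSG00000028747.10, chromosome 4, 139061108 to 139075570), a Gs-coupled receptor largely confined to the brain, had 3.11, 3.58, 3.00 and 3.36 CPM in MRL-IRAK4-KD mice and 2.89, 2.14 and 2.37 CPM in the libraries labelled IRAK4-KD. These values gave a log2 fold change of 0.40 (SE 0.16, adjusted p = 0.553 by edgeR), and 0.36 without both libraries that stand apart. Htr1a had 29.5, 22.7, 28.9 and 19.2 CPM in MRL-IRAK4-KD and 33.0, 35.3 and 30.7 CPM in the libraries labelled IRAK4-KD, with a log2 fold change of -0.40 (SE 0.21, adjusted p = 0.553), and -0.34 (SE 0.25) without both of them. Htr1b overlapped between these groups, at 7.91, 6.38, 9.11 and 4.33 CPM in MRL-IRAK4-KD mice, and its log2 fold change of -0.59 (SE 0.26, adjusted p = 0.553) was -0.29 without the library labelled IRAK4-KD replicate 3 and -0.12 without both libraries that stand apart.

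Htr4 (ENSMUSG00000026322.9, chromosome 18, 62324204 to 62496577), a Gs-coupled receptor, and Htr2c reached an unadjusted p below 0.05 in 0 of the 5 tests each. Htr4 had 2.96 CPM in MRL-IRAK4-KD replicate 4 and 6.28 to 11.7 CPM in the other 13 mice. Htr2c had 23.8, 24.6, 34.9 and 35.6 CPM in the MRL mice and 38.7, 26.3, 29.9 and 20.8 CPM in the MRL-IRAK4-KD mice. It had 29.5, 46.0 and 28.0 CPM in C57BL/6 mice, and 27.1, 36.3 and 31.4 CPM in the libraries labelled IRAK4-KD. Its spread within each group covered the differences between the groups. Summed CPM of 13 markers of the choroid plexus, led by the carrier protein gene Ttr, ran from 72.0 to 1714 in MRL, 163 to 7870 in MRL-IRAK4-KD, 124 to 450 in C57BL/6 and 171 to 1488 in IRAK4-KD libraries, with none of the 13 at 0. Of the 5 mice with sums of 1437 CPM or more, 4 had Htr2c at 34.9 CPM or more, while MRL-IRAK4-KD replicate 4, with the highest sum, had the lowest Htr2c. Ttr alone made up 7630 CPM of that highest sum. Of the 13 markers, 9 were highest and 0 lowest in that library. The highest Htr2c, in C57BL/6 replicate 2, came with a sum of 185 CPM. The part of choroid plexus in these values was not tested.

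**Figure D4:**
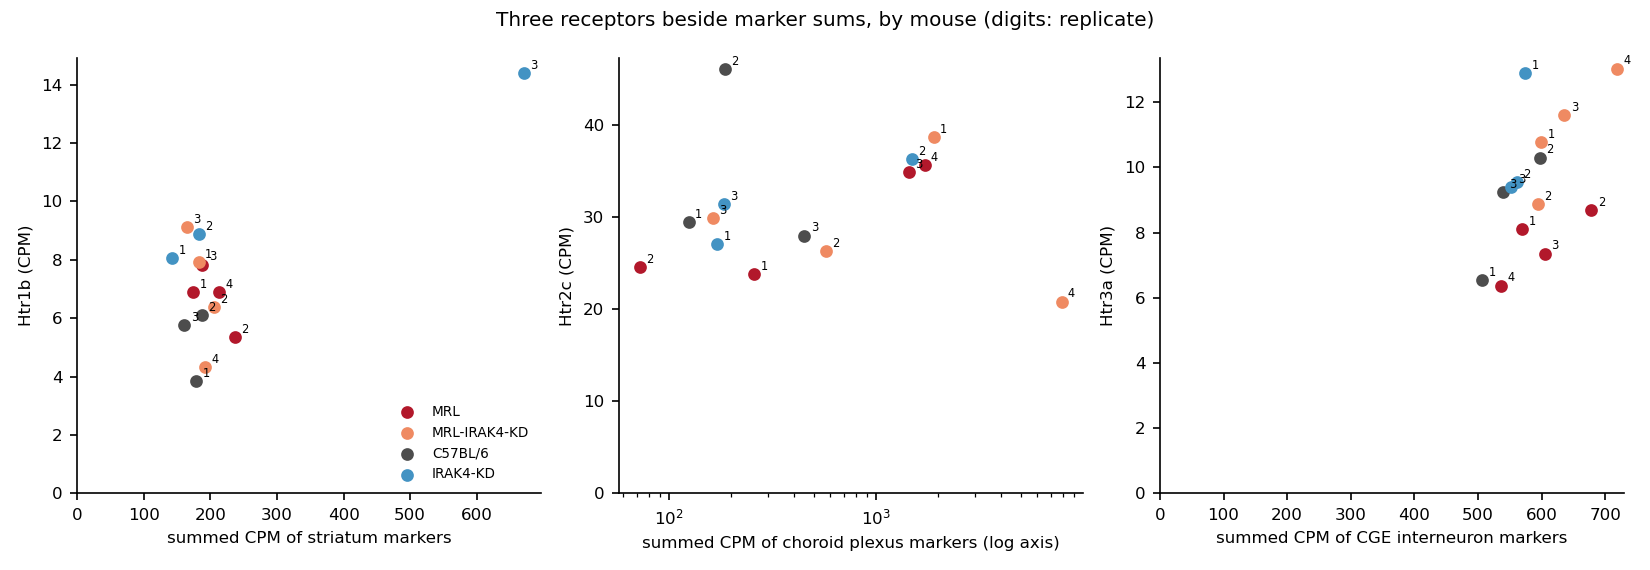
Htr1b, Htr2c and Htr3a in CPM against the summed CPM of markers of striatum, choroid plexus (log axis) and interneurons of the caudal ganglionic eminence (CGE), 1 point per mouse with its replicate number. The library labelled IRAK4-KD replicate 3 lies alone at 14.4 CPM of Htr1b and 671 CPM of striatal markers. MRL-IRAK4-KD replicate 4 lies alone at 7870 CPM of choroid plexus markers, of which Ttr is 7630 CPM, with the lowest Htr2c.

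The transcript table showed how the counts of each gene were shared among its annotated transcripts. Only 1 transcript is annotated for Htr1a, Htr1f, Htr2a, Htr5a and Htr5b, and Htr1b-202, Htr6-202 and Htr4-201 held 99.8%, 99.1% and 96.3% of the counts of their genes over the 14 mice. For Htr2c, the transcript that skips the 95-base segment shown above, Htr2c-207, held 21.8% ± 5.35 (SD) of the counts of MRL mice and 11.1% ± 9.19 of those of MRL-IRAK4-KD mice (n = 4 each). Its share was 21.8% ± 7.41 for C57BL/6 mice and 11.05% ± 10.05 for the libraries labelled IRAK4-KD (n = 3 each). In single mice the share was 22.9%, 14.4%, 27.2% and 22.6% in MRL, and 9.46%, 12.7%, 22.3% and 0% in MRL-IRAK4-KD. It was 29.2%, 14.4% and 21.8% in C57BL/6, and 13.5%, 0% and 19.6% in the libraries labelled IRAK4-KD. Both groups with the dead kinase had the lower mean, each with a mouse at 0%, and their ranges overlapped those of both groups with the kinase intact.

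The mice at 0% were those in which counts were put on Htr2c-202, which has the same coding length as Htr2c-201 and 134 more bases outside the coding sequence. Htr2c-202 held 90.5% of the counts in MRL-IRAK4-KD replicate 4, where Htr2c-201 had 0%, and 10.3% in IRAK4-KD replicate 2, and it held 0% in the other 12 mice. Shares of transcripts that overlap over most of their length are estimates of the counting program, so no test was made of them. Without MRL-IRAK4-KD replicate 4 the mean share of Htr2c-207 in that group was 14.8%, and without the library labelled IRAK4-KD replicate 3 it was 6.75% in the IRAK4-KD group. The mean of 6.75% still includes IRAK4-KD replicate 2 at 0%, and no mean without that mouse was taken.

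For Htr3a, the transcript with the 18 extra bases, Htr3a-201, was the minor form in every mouse. It held 17.4%, 3.89%, 12.6% and 11.02% of the counts in MRL and 7.68%, 0.348%, 12.9% and 5.21% in MRL-IRAK4-KD mice. It held 22.7%, 9.66% and 9.40% in C57BL/6 mice and 8.47%, 9.50% and 7.48% in the libraries labelled IRAK4-KD. The ranges of all 4 groups overlapped. Htr3a-202 held the other 90.6% of the Htr3a counts over the 14 mice.

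**Figure D5:**
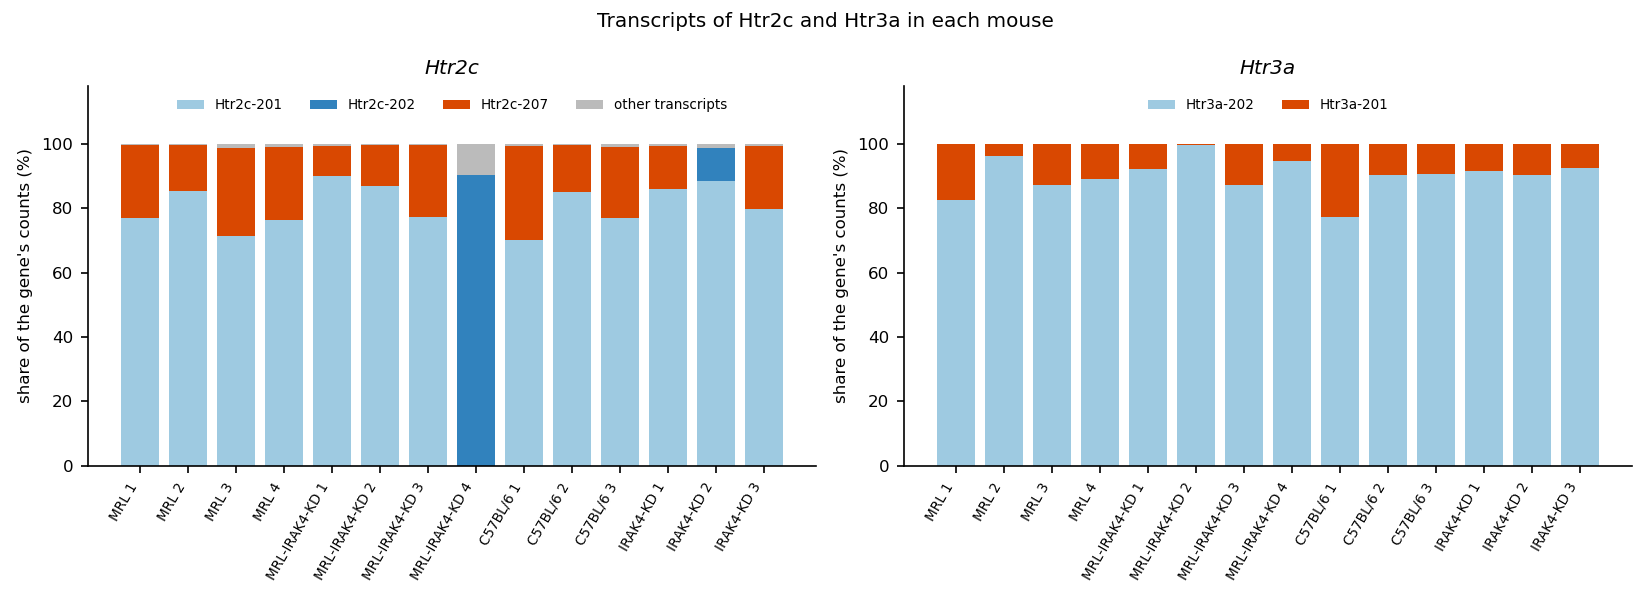
Share of the counts of Htr2c (left) and Htr3a (right) on each annotated transcript in each of the 14 mice, in percent. Htr2c-207 is present in 12 of 14 mice, Htr2c-202 holds 90.5% in MRL-IRAK4-KD replicate 4, and Htr3a-201 never exceeds 22.7%.

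The 4 other serotonin receptor genes showed no call in any comparison. Htr7, a Gs-coupled receptor, averaged 8.33 ± 1.68 CPM (SD) over the MRL mice and 6.86 ± 1.84 CPM over the MRL-IRAK4-KD mice (n = 4 each). The C57BL/6 mice averaged 8.64 ± 2.09 CPM and the libraries labelled IRAK4-KD 7.80 ± 0.503 CPM (n = 3 each). Htr1d, an autoreceptor like Htr1b, reached 1.30 CPM in the library labelled IRAK4-KD replicate 3, with 0.116 to 0.492 CPM in the other 13 mice. Htr2b had 0.0258 to 0.284 CPM.

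The other genes of serotonin signalling were 39 genes of synthesis, storage, uptake and breakdown, of G proteins, of effectors, and of receptor partners and RNA editing. None of these passed an adjusted p of 0.05 by edgeR in any comparison. Together with the 4 other receptors they were 43 genes, counted here by an unadjusted p below 0.05, with the share of all genes beside each count. In MRL against MRL-IRAK4-KD mice 9 of 43 reached it (5 higher and 4 lower), against 11.4%. The count was 0 in IRAK4-KD against C57BL/6 (3.8%) and 5 in MRL against C57BL/6 (5 higher, 5.55%). It was 4 in MRL-IRAK4-KD against IRAK4-KD (3 higher and 1 lower, 8.63%) and 1 in the interaction (4.17%). The median log2 fold change of the 43 genes in MRL against MRL-IRAK4-KD mice was 0.13, beside 0.00 for all genes. The 12 effectors were adenylyl cyclases, phospholipases, potassium channels and the protein kinase genes Prkaca and Prkacb. They were above 0 in 11 of 12 with a median of 0.23, but without MRL-IRAK4-KD replicate 4 in 7 of 12 with a median of 0.07. Of all genes, 50.2% lay above 0.

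Tph1, the peripheral enzyme that starts serotonin synthesis, had the smallest p in the first comparison. It had 0.232, 0.247, 0.313 and 0.213 CPM in MRL mice against 0.559, 0.354, 0.570 and 0.480 CPM in MRL-IRAK4-KD mice, and 0.265 to 0.477 CPM in C57BL/6 and the libraries labelled IRAK4-KD. The MRL mice lay below all MRL-IRAK4-KD mice, with a log2 fold change of -0.97 (SE 0.26, adjusted p = 0.335 by edgeR, 0.0151 by DESeq2 and 0.0893 by limma-voom), at a level under 1 CPM throughout.

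Adar, an enzyme that edits Htr2c RNA, had 149, 145, 146 and 152 CPM in MRL mice against 125, 122, 119 and 75.0 CPM in MRL-IRAK4-KD mice. It had 146, 141 and 139 CPM in C57BL/6 mice and 114, 122 and 121 CPM in the libraries labelled IRAK4-KD. Each group with the dead kinase lay below its counterpart with the kinase intact, without overlap. Of all genes, 5.26% lay apart in either direction between MRL and MRL-IRAK4-KD mice. Between C57BL/6 mice and the libraries labelled IRAK4-KD 11.2% did. The share of genes apart in both comparisons in the same direction was not counted. The log2 fold change of MRL over MRL-IRAK4-KD was 0.43 (SE 0.13, adjusted p = 0.401 by edgeR, 0.0189 by limma-voom and 0.107 by DESeq2). Without MRL-IRAK4-KD replicate 4, the lowest of the 14 mice, it was 0.29 (SE 0.05, adjusted p = 0.0505 by edgeR). The fold change of IRAK4-KD over C57BL/6 was -0.26 (SE 0.15, adjusted p = 1.00 by edgeR).

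In MRL-IRAK4-KD against IRAK4-KD mice the smallest p was that of Ddc, the decarboxylase that completes the synthesis of serotonin and of dopamine. It had 5.501, 5.44, 4.64 and 6.94 CPM in MRL-IRAK4-KD and 3.88, 3.46 and 3.52 CPM in the libraries labelled IRAK4-KD, which lay apart. The log2 fold change was 0.64 (SE 0.16, adjusted p = 0.323 by edgeR, 0.00988 by DESeq2 and 0.0581 by limma-voom), and Tph1 followed at 0.68 (SE 0.28, adjusted p = 0.553). In MRL against C57BL/6 mice the smallest p-values were those of the effectors Plcb4, a phospholipase C (log2 fold change 0.76, SE 0.22, adjusted p = 0.640), and Adcy1, an adenylyl cyclase (0.43, SE 0.16, adjusted p = 0.853). In IRAK4-KD against C57BL/6 mice they were those of Slc18a2, which loads serotonin into vesicles (0.34, SE 0.16, adjusted p = 1.00), and Kcnj9, a channel opened by inhibitory receptors (-0.32, SE 0.17, adjusted p = 1.00), and in the interaction those of Tph1 (-1.18, SE 0.39, adjusted p = 0.914) and Gnal, a stimulatory G protein subunit (0.43, SE 0.20, adjusted p = 0.914). The interaction of Gnal was 0.21 without the library labelled IRAK4-KD replicate 3.

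Pairs of members were compared across the mice, where all genes of a mouse share its library and depth. Pairs of other genes were not counted in this way, so the values do not show whether members vary together more than other genes. The Pearson correlation of log2 CPM over the 14 mice was above 0 for 32 of 45 pairs of members, with a median of 0.33, and for 30 of 45 with a median of 0.18 without MRL-IRAK4-KD replicate 4. Htr2a and Htr4 had the highest value, 0.84, which was 0.50 without that library. Htr1b and Htr2a had 0.79 and 0.84, and 0.78 without the library labelled IRAK4-KD replicate 3, and Htr1a and Htr5b had 0.73 and 0.70. Htr3a and Htr5a had the lowest value over the 14 mice, -0.71, and -0.69 without MRL-IRAK4-KD replicate 4. The mice with more Htr3a thus tended to have less Htr5a with or without that library. Without it, Htr5a and Htr5b had the lowest value, -0.78, against -0.18 over the 14 mice. Htr4 and Htr5a turned from 0.53 to -0.70 when it was left out.

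Among 16103 genes, those named here as most like each member over the 14 mice were ranked by the same correlation. For the members on inhibitory G proteins they were Slc37a3, Etfbkmt and Thsd7b for Htr1a (0.93 to 0.89), Gad1, Klhl1 and Vrk1 for Htr1b (0.86 for each), Gsk3b, Robo2 and Hspa4l for Htr1f (0.90 to 0.82), Cav2, Ptprm and Hivep1 for Htr5a (0.98 to 0.97), and Tmem150c, Slc1a1 and Zfp706 for Htr5b (0.96 to 0.93). They were Ccny, Fam117b and Ubxn7 for Htr2a (0.94 for each), Prr36 and Pappa2 for Htr2c (0.88 and 0.82), Sez6l, Map4k3 and Wdr59 for Htr4 (0.99 to 0.98), Gm48623, Zfpm1 and Sema6c for Htr6 (0.93 to 0.89), and Eid2, AI115009 and Mllt11 for Htr3a (0.94 to 0.91). Without MRL-IRAK4-KD replicate 4 these correlations lay between 0.77 and 0.96, and without the library labelled IRAK4-KD replicate 3, the highest in Htr1b, between 0.74 and 0.99. Gad1, which makes the transmitter of inhibitory neurons, had 0.83 with Htr1b without the former and 0.84 without the latter, while Klhl1 and Vrk1 had 0.77 and 0.74 with it without the latter. Slc1a1, a glutamate transporter of neurons, had 0.94 with Htr5b without the former and 0.95 without the latter.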

How the data were processed

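Hippocampal mRNA of 14 mice was sequenced in bulk, and their 4 groups were taken from the deposited labels. Per the labels' processing notes, the authors used HISAT2 2.1.0, SAMtools 1.9, StringTie 2.1.0 and the mm10 build, and they deposited raw counts, as whole numbers, for genes and for transcripts. StringTie derives counts from coverage, and totals came to 1.40 to 2.08 counts per read listed by the sequencing core. Library preparation is given as SMART-seq with NexteraXT in the publication but as KAPA HyperPrep mRNA in the labels, and this was not resolved. A model of the 4 groups was fitted here by robust quasi-likelihood with TMM scaling in edgeR 4.0.16 (R 4.3.3) to the 38070 genes whose counts summed to 10 or more. Benjamini-Hochberg adjustment ran over all of them, with calls at an adjusted p below 0.05. DESeq2 1.42.0 and limma 3.58.1 were alternatives. Standard errors are the log2 fold change over the root of F, and 95% intervals use the degrees of freedom of the fit. CPM are on TMM-scaled totals. Levels per kilobase divide each transcript's counts by its length in GENCODE M21, whose sequences were used. Correlations are of log2(CPM + 0.1). The scripts were tested on simulated data.

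The members and lists were chosen with earlier results of these data known. Named genes are the members, the 4 other receptors, pathway genes called or otherwise the 2 of smallest p, the 3 genes most like each member (1 of them is not reported here), and label checks. Alternatives were other size factors, filters and tools, the groups compared alone, the replicate number as a block, halved counts, each mouse left out, and both libraries that stand apart left out. Isoform shares per kilobase or without these libraries, correlations without each of them, and member medians and pathway genes without either or both, were added after values had been seen. Nothing says whether mice of a group shared a litter or were sequenced together, so p-values measure the spread between these mice. Intervals and counts cover no error of the transcript assignment. Other measurements of the study were not analysed here.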

Additional observations from a re-analysis of the deposited data

Results flagged for a closer look

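In MRL replicate 2, Htr1a was 13.9 CPM, while the other 3 MRL mice had 26.4 to 28.6 CPM, a gap that exceeds the limit of Dixon's test for 4 samples. In MRL-IRAK4-KD replicate 1, Htr3b was 0.00825 CPM, or 4 counts, and the other 3 mice of the group had 0 counts, so the gap equals the whole range whatever the fourth value is and the test says nothing of Htr3b. These were 2 of 28 groups of 4 mice examined over the 14 receptor genes, and chance gives about 1 in 20 where the values are not tied. The causes were not tested.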

How the results depend on the processing

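Under all 24 alternatives 0 of 10 members were called in each comparison that could be fitted, the fits of the compared groups alone giving no interaction, and the lowest adjusted p of any member was 0.0678. Calls over all genes, given here for the alternatives that moved them by more than 1.5 times, changed as follows. DESeq2 called 395 genes in MRL against MRL-IRAK4-KD, 166 in IRAK4-KD against C57BL/6, 197 in MRL against C57BL/6, 283 in MRL-IRAK4-KD against IRAK4-KD and 59 in the interaction, and limma-voom with quality weights called 213, 145, 38, 275 and 22. Fits of the groups compared alone called 18 in MRL against MRL-IRAK4-KD, 95 in IRAK4-KD against C57BL/6 and 6 in MRL-IRAK4-KD against IRAK4-KD. Without both libraries that stand apart, 20 genes were called in MRL against C57BL/6 and 11 in the interaction. The interaction had 4 calls without a filter on low counts and 4 with counts halved. With each mouse left out in turn the calls ran from 33 to 106 in IRAK4-KD against C57BL/6, 0 to 21 in MRL against C57BL/6, 11 to 65 in MRL-IRAK4-KD against IRAK4-KD and 1 to 15 in the interaction. Of the pathway genes, DESeq2 called 1 in MRL against MRL-IRAK4-KD and 1 in MRL-IRAK4-KD against IRAK4-KD, and limma-voom called 1 in the former.

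Of 50 member fold changes, 15 turned direction under some alternative, none of them called. In MRL against MRL-IRAK4-KD, Htr2a was -0.073 with limma-voom, and without both libraries Htr2a was -0.086 and Htr2c -0.095. Without both libraries Htr3a was -0.11 and Htr5a 0.057 in MRL-IRAK4-KD against IRAK4-KD, and Htr4 was -0.10 in the interaction, where limma-voom gave -0.17. With each mouse left out, the first comparison ranged from -0.17 to 0.13 for Htr1a, -0.20 to 0.13 for Htr1b, -0.075 to 0.31 for Htr2a, -0.084 to 0.21 for Htr2c and -0.28 to 0.16 for Htr4. IRAK4-KD against C57BL/6 ranged from -0.26 to 0.14 for Htr2c, -0.18 to 0.025 for Htr5a and -0.17 to 0.060 for Htr6, and MRL against C57BL/6 from -0.34 to 0.059 for Htr2c. MRL-IRAK4-KD against IRAK4-KD ranged from -0.30 to 0.0029 for Htr2c, -0.026 to 0.23 for Htr3a and -0.21 to 0.070 for Htr5a, and the interaction from -0.21 to 0.19 for Htr2c and -0.019 to 0.42 for Htr4. The causes were not tested.

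The replicate numbers are not stated to pair the mice. Over 19 same-numbered pairs the correlation of deviations from the group means ran from -0.25 to 0.37, with 4 above 0.1. Mice of different numbers were not compared in this way, so these values cannot decide whether the numbers pair mice. With the replicate number as a block, Htr4 was 0.11 in MRL against MRL-IRAK4-KD and 0.11 in MRL against C57BL/6, and the interaction had 2 calls. Scaling moved the median of all genes by at most 0.060.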
